A study of Mus musculus with 2 samples.

Results

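The retinal vasculature was described here through 35 vascular and blood-retina barrier genes, taken from 23356 gene symbols in a deposited table of transcript levels and matched by exact symbol. They comprised 14 genes of endothelial identity, 5 endothelial growth factor and angiopoietin receptors, 5 genes of the barrier, 7 genes of mural cells (pericytes and vascular smooth muscle) and 4 angiogenic ligands. RNA came from whole retinas of 15-day-old mouse pups (postnatal day 15), and each genotype, control and triple mutant, gave 1 library. Both carried Dnmt1, Dnmt3a and Dnmt3b alleles flanked by loxP sites (flox/flox), the genes of the 3 DNA methyltransferases. The control was Rx-Cre negative and the mutant Rx-Cre positive, so that Cre is driven by regulatory sequence of the retinal progenitor gene Rx. The labels do not give how many animals went into a library, which cells Cre had acted in, or which exons were flanked, and they give the strain as C57BL/6 (control) and C57BL/7 (mutant). With 1 library per genotype there is no replicate error and no test between genotypes, and every difference is one between these 2 libraries.

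Retinal vessels are endothelial tubes wrapped by pericytes. Their endothelium forms the inner blood-retina barrier through tight junctions, low vesicle traffic and selective transporters, a state kept by Norrin and Wnt signalling from the surrounding retina. Neurons and glia secrete VEGF-A, which guides vessel growth into the retina. Endothelial and mural cells, like microglia, are not descendants of the retinal progenitors in which Rx is known to act.

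Levels are in FPKM (fragments per kilobase of transcript, scaled to library depth), summed over the transcripts of a gene, and can be set side by side between genes because they are per length. An FPKM of 1 rested on about 48.7 fragments per kilobase of control transcript and 55.7 of mutant transcript, which was worked out from the spacing of low FPKM values. Ranges in brackets are 95% intervals that cover counting error only. A log2 ratio is log2 of mutant over control after adding 1 FPKM to both, which understates the ratio of low genes. A gene was measured where it had at least 1 FPKM in 1 or both libraries, and it passed the size rule where its log2 ratio was at least 1 either way. As a check of the labels, Dnmt1 stood at 21.7 FPKM in control retina and 11.6 in mutant retina, Dnmt3a at 87.4 and 56.0, and Dnmt3b at 1.03 and 0.827. A check of the tissue was also made, which cannot show whether the 2 dissections matched. In it, 10 of 10 markers of Mueller glia, the main glia of the retina, were measured. Their ratios ran in both directions, from Glul, the glutamine synthetase gene (952 and 561 FPKM, log2 ratio -0.76), to Crym, a thyroid hormone-binding protein gene (99.4 and 323 FPKM, 1.69), the 1 marker of the 10 past the size rule.

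Most vascular genes differed little between the libraries. Of the 35 genes, 33 were measured, and Angpt1 and Anpep fell short of 1 FPKM in both libraries. The size rule was passed upwards by 1 gene, Ly6a, against a background of 1.84% of all 13280 measured genes, and downwards by 1 gene, the transporter gene Slco1a4, against 0.648%. The other 31 lay between. At a smaller size of 0.5, chosen after seeing the data, 3 genes were lower (Slco1a4, Pdgfrb and Mfsd2a, against 4.74% of all measured genes) and 1 was higher (Ly6a, against 5.37%). The median log2 ratio of the 33 was -0.22, where the median of all measured genes was 0.00 and their quartiles were -0.16 and 0.15. That median of -0.22 became -0.11 with a pseudocount of 5 FPKM, -0.12 with a filter of 5 FPKM and -0.14 with the highest transcript of each gene. Of the 33, 23 had a log2 ratio below 0 (69.7%, against 50% of all measured genes), 17 lay below the lower quartile of all genes (51.5%, against 25%) and 4 above the upper one. By counting error alone, the interval of the fold lay below 1 for 20 genes, above 1 for 8 and held 1 for 5, where it lay below 1 for 34.7% and above 1 for 33.1% of all measured genes with a transcript length. Many genes of this depth thus differ by more than counting error, and how much 2 libraries of 1 genotype would differ is not known. In RNA of whole retina, fewer cells of a type and less RNA per cell cannot be told apart.

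**Figure D1:**
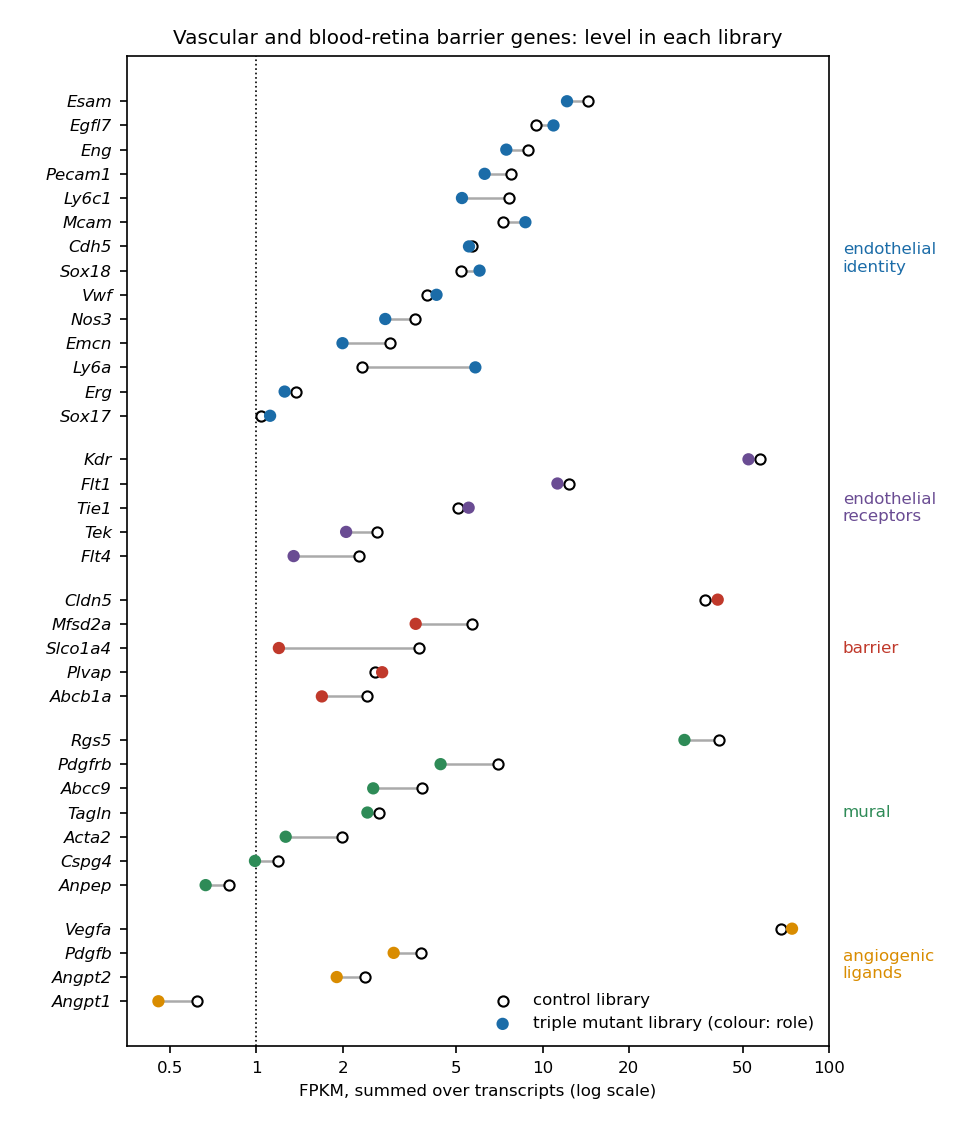
Level of each of the 35 genes in FPKM (log axis) in the control library (open circles) and the triple mutant library (filled circles, coloured by role), with 1 library per genotype and a dotted line at 1 FPKM. Vegfa, Kdr, Rgs5 and Cldn5 had the highest levels, Slco1a4 and Ly6a show the widest gaps, and all 7 mural genes lie lower in the mutant library.

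The barrier genes are taken first, because the transporters among them held the lowest ratio. The upstream sequences of Slco1a4, Mfsd2a and Cldn5 are shown since a DNA methyltransferase acts on cytosine before guanine, and these genes differ in how many such CG pairs precede their start. Each is the 250 bases before the RefSeq start on GRCm38.p6, printed 5′ to 3′ on the gene's strand with CG pairs in capitals: Slco1a4 on the minus strand of chr6:141856221-141856470, Mfsd2a on the minus strand of chr4:122961189-122961438, and Cldn5 on the plus strand of chr16:18776597-18776846.
Slco1a4: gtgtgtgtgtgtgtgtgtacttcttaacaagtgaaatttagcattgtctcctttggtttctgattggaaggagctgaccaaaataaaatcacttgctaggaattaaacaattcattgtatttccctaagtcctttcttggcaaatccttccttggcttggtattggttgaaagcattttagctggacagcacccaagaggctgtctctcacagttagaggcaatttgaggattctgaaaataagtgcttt
Mfsd2a: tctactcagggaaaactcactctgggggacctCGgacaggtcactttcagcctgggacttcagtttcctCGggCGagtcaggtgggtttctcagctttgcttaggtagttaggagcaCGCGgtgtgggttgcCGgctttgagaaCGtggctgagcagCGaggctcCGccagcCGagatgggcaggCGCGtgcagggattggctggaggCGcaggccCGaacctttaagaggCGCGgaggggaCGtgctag
Cldn5: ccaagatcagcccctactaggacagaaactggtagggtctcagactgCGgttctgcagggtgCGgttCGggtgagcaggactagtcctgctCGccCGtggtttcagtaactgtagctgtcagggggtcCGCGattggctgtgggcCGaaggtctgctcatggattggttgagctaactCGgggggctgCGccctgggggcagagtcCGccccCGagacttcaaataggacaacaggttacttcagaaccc
The Slco1a4 window held 0 CG pairs, as did 7.87% of 32851 windows of the same length before RefSeq starts. The Mfsd2a window held 17 and the Cldn5 window 12, where the median of all windows was 6 and the quartiles were 2 and 16. Of the 35 genes, 21 were in the RefSeq promoter table and 19 had an entry within 100 bases of the deposited transcript's start. Over these 19 the CG count ran from 0 (Slco1a4) to 25 (Mcam), with a median of 6. Methylation was not measured in these data.

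The 3 transport genes of the barrier were all lower in the mutant library. Slco1a4 encodes an organic anion transporter of brain and retinal endothelium and lies on chromosome 6, 141805440 to 141856199, minus strand. It had 3.70 FPKM in control retina and 1.198 in mutant retina, 32.3% of the control (27.8 to 37.5), a log2 ratio of -1.10. Mfsd2a, a lysolipid transporter that carries docosahexaenoic acid and holds down vesicle traffic across the endothelium (chromosome 4, 122946850 to 122961188, minus strand), had 5.68 and 3.60 FPKM, 63.4% of the control (55.6 to 72.2). Abcb1a, which encodes the efflux pump P-glycoprotein, had 2.44 and 1.69 FPKM, 69.4% of the control (61.3 to 78.6). The mutant library was thus the lower of the pair for each of them, and for Slco1a4 by about 3.09-fold (2.67 to 3.60). Slco1a4 lost the call with a pseudocount of 5 FPKM (log2 ratio -0.49), and a filter of 5 FPKM leaves it out.

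Structural and leak markers of the barrier did not share this direction. Cldn5, the main claudin of the endothelial tight junction (chromosome 16, 18776847 to 18778262, plus strand), had 36.9 FPKM in control retina and 40.9 in mutant retina, 111% of the control (105 to 117). Plvap, which forms the diaphragms of fenestrated vessels and is low in a closed barrier, had 2.60 and 2.75 FPKM, 106% (88.6 to 126), an interval that holds no difference. The 5 barrier genes together had a median log2 ratio of -0.35, between -1.10 and 0.14.

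The authors' deposited table also holds a Cuffdiff test of each transcript, which compares these 2 libraries and not the genotypes. Of 60 transcripts of the 35 genes, 49 were tested there and 0 were called significant, where 0.353% of all 19556 tested transcripts were. In the authors' deposited table the Slco1a4 transcript NM_030687 had the lowest p of them, 0.0129, with a q of 0.739, and it was the 1 tested transcript of these genes with a p under 0.05.

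A list of 15 further transporters of the blood-retina and blood-brain barrier was all measured, where 0 passed the size rule and the median log2 ratio was -0.18. Its lowest ratios belonged to Slc6a6, the taurine transporter (315.5 and 170.8 FPKM), Slc16a1, the monocarboxylate transporter 1 gene (70.2 and 39.96), and Slco1c1, a thyroxine transporter and close relative of Slco1a4, with 4.86 and 2.48 FPKM, 51.1% of the control (45.2 to 57.7). Slc22a8, an organic anion transporter of barrier endothelium, had 2.87 and 1.38 FPKM and was the only other of the 15 at or below -0.5. Slc7a5 and Slc3a2, the 2 chains of a large amino acid transporter, had 36.5 and 56.9 FPKM and 58.05 and 83.3 FPKM and were the highest. The glucose transporter gene Slc2a1 had 146 and 157 FPKM. Slc6a6, Slc16a1, Slc7a5, Slc3a2 and Slc2a1 are used by neurons, glia or pigment epithelium as well, so their levels do not measure endothelium alone. The other Slco1a genes of the Slco1a4 cluster were near 0: Slco1a5 had 0.128 and 0.0292 FPKM, and Slco1a1 and Slco1a6 were listed at 0 in both libraries.

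Pigment epithelium and choroid lie against the retina and can come along in dissection, so their markers were read beside the transporters. Of 11 pigment epithelium and melanocyte markers, 9 were measured and 8 were lower past the size rule, against 0.648% of all measured genes. Their summed level was 135 FPKM in control retina and 7.53 in mutant retina. None of the 11 was listed at 0 in either library. Of 13 lens markers, 9 were measured and 9 were lower past the rule, with a summed level of 196 and 13.1 FPKM, and Lim2 was at 0 in the mutant. Plvap, which the fenestrated vessels of the choroid carry, stood at 106% of the control (88.6 to 126). It was read above as a leak marker of the barrier too, so its level does not measure choroid alone. The part of these tissues in the levels of Slco1a4, Mfsd2a, Abcb1a and the further transporters was not tested.

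The endothelial identity genes centred near no difference. Their 14 members were all measured, 6 above and 8 below 0, with a median log2 ratio of -0.05 and sums of 81.5 FPKM in control retina and 79.6 in mutant retina. Cdh5, the cadherin of endothelial junctions, had 5.66 and 5.53 FPKM, 97.8% of the control (90.0 to 106). Pecam1, a junction adhesion molecule, had 7.74 and 6.27 FPKM, 81.0% (74.6 to 88.1). Esam, another junction adhesion molecule, had 14.4 and 12.2 FPKM, and Eng, the TGF-beta co-receptor endoglin, had 8.87 and 7.47. Eng shares up to 61 exon bases with the opposite-strand gene Fpgs (3.91 and 4.92 FPKM). The interval of Cdh5 held no difference, and those of the other 3 lay below it.

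Genes above 0 in the identity class were led by Ly6a, apart from which they stayed within 120% of the control. Mcam, an adhesion molecule that pericytes also carry, had 7.26 and 8.71 FPKM, 120% (110 to 130). Egfl7, a secreted endothelial factor, had 9.51 and 10.9 FPKM, 115% (103 to 129). Vwf, the clotting factor von Willebrand factor, had 3.96 and 4.26 FPKM. The transcription factor genes were near level: Erg had 1.38 and 1.25 FPKM, Sox17 1.04 and 1.12, and Sox18 5.20 and 6.02, and the intervals of Erg and Sox17 held no difference. All 3 of these factors help set endothelial identity.

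Beside Pecam1, Esam and Eng, 3 further identity genes, Ly6c1, Emcn and Nos3, had intervals wholly below 1. Ly6c1, a surface antigen of barrier endothelium, had 7.64 and 5.23 FPKM, 68.4% of the control (56.5 to 82.9). Emcn, a mucin of veins and capillaries, had 2.93 and 1.999 FPKM, 68.1% (57.8 to 80.0). Nos3, the endothelial nitric oxide synthase, had 3.58 and 2.82 FPKM, 78.8% (70.6 to 87.9), and shares up to 294 exon bases with Atg9b on the opposite strand, which had 0.398 and 0.560 FPKM.

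Ly6a was the highest ratio of the 35. It encodes Sca-1, a surface protein of endothelium and progenitor cells that interferon is known to induce (chromosome 15, 74994877 to 74998031, minus strand). It had 2.33 FPKM in control retina and 5.82 in mutant retina, 2.50-fold higher (1.97 to 3.22), with a log2 ratio of 1.03. It lost the call with a pseudocount of 5 FPKM (0.56) and where the highest transcript stood for the gene (0.92). Its neighbours of the same family went separate ways: Ly6c1 was lower as given above, while Ly6e, which many cell types express, had 21.3 and 42.3 FPKM. Ly6c2, a close copy of Ly6c1, was listed at 0 for control retina and at 0.278 FPKM for mutant retina. Fragments of such related genes can be assigned to the wrong copy.

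Interferon and microglia genes were higher beside Ly6a. Of 12 interferon-response genes, all were measured and 12 passed the size rule upwards, against 1.84% of all measured genes. Their median log2 ratio was 3.33, with summed levels of 25.5 FPKM in control retina and 312 in mutant retina. Of 12 microglia and macrophage markers, 10 were measured and 7 passed it upwards, with summed levels of 29.0 and 126 FPKM, and none was at 0. Both lists were chosen with earlier results of these data known, so these counts are not independent of the data. The part of these genes in the Ly6a level was not tested. By log2 ratio the lowest of the 12 interferon genes was Ifi44 at 1.62, with 0.128 and 2.46 FPKM. By fold the lowest was Irf7, 3.99-fold higher in the mutant library (3.63 to 4.40).

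The endothelial receptors kept their order of level in both libraries, with Kdr far above the rest. Kdr, the main signalling receptor of VEGF-A (chromosome 5, 75932827 to 75978458, minus strand), had 57.5 FPKM in control retina and 52.4 in mutant retina, 91.2% of the control (89.3 to 93.2). Flt1, a decoy receptor that traps VEGF-A, had 12.3 and 11.3 FPKM, also 91.2% (87.4 to 95.3). Kdr thus stood far above Cdh5 and Pecam1 per length, and retinal neurons and progenitors are known to express it too. Flt4, the VEGF-C receptor of sprouting tips and lymphatics, had 2.28 and 1.35 FPKM, 59.1% (52.4 to 66.7), the lowest of the 5. Of the angiopoietin receptors, Tek (Tie2) had 2.63 and 2.06 FPKM, 78.3% (69.3 to 88.3), and Tie1 had 5.05 and 5.51, 109% (100.2 to 119). The median of the 5 was -0.13, inside the quartiles of all genes.

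Mural genes all lay on the lower side. Of 7, 6 were measured, and these 6 had log2 ratios from -0.57 to -0.09 with a median of -0.39, below the lower quartile of all genes. Rgs5, a G protein regulator that marks pericytes (chromosome 1, 169655501 to 169695813, plus strand), was the most abundant, with 41.3 FPKM in control retina and 31.3 in mutant retina, 75.8% of the control (73.4 to 78.3). Pdgfrb, the receptor that recruits pericytes, had 7.00 and 4.40 FPKM, 62.9% (58.5 to 67.6). Abcc9, the sulfonylurea receptor subunit of the pericyte potassium channel, had 3.78 and 2.56 FPKM, 67.6% (62.3 to 73.5). These 3, each more abundant than the rest of the class, stood between 62.9% and 75.8% of the control, and none passed the size rule.

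The contractile and remaining mural genes were low in both libraries. Acta2, the smooth muscle actin gene, had 1.98 and 1.27 FPKM, 63.8% (50.7 to 80.3). Tagln, another contractile gene, had 2.68 and 2.44 FPKM, 91.3% (74.6 to 112), with an interval that holds no difference. On the opposite strand it shares up to 404 exon bases with Gm48529, which has no listed level, and up to 94 with Pcsk7 (9.89 and 10.2 FPKM). Opposite-strand genes without a listed level also overlap exons of Abcb1a (Gm42686, up to 141 bases), Angpt1 (Gm17473, 653) and Nos3 (Gm15587, 163). For Abcc9 the overlap was up to 158 bases with 5330439B14Rik, listed at 0 in both libraries. Cspg4, the NG2 proteoglycan of pericytes and oligodendrocyte precursors, had 1.19 and 0.988 FPKM, and Anpep, a pericyte aminopeptidase, had 0.802 and 0.664.

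Of 12 further mural genes, 9 were measured, 4 above and 5 below 0, 0 passed the size rule, and the median was -0.03. Its lowest ratios were those of Vtn, the secreted matrix protein vitronectin (339 and 261 FPKM), Kcnj8, the channel partner of Abcc9 (3.39 and 2.57 FPKM, 75.8% of the control, 65.4 to 87.9), and Notch3, the Notch receptor of mural cells (2.65 and 2.02 FPKM). Vtn stood far above Rgs5 (41.3 and 31.3 FPKM) per length, and which cells its RNA came from was not tested. The highest of the 9 was Ndufa4l2, a hypoxia-responsive gene that pericytes express, with 8.06 and 13.3 FPKM. The difference between mural and endothelial genes was not tested. Of 8 fibroblast and meningeal markers, 5 were measured and 0 passed the rule, with sums of 44.8 and 59.9 FPKM and Lum at 0 in both libraries.

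**Figure D2:**
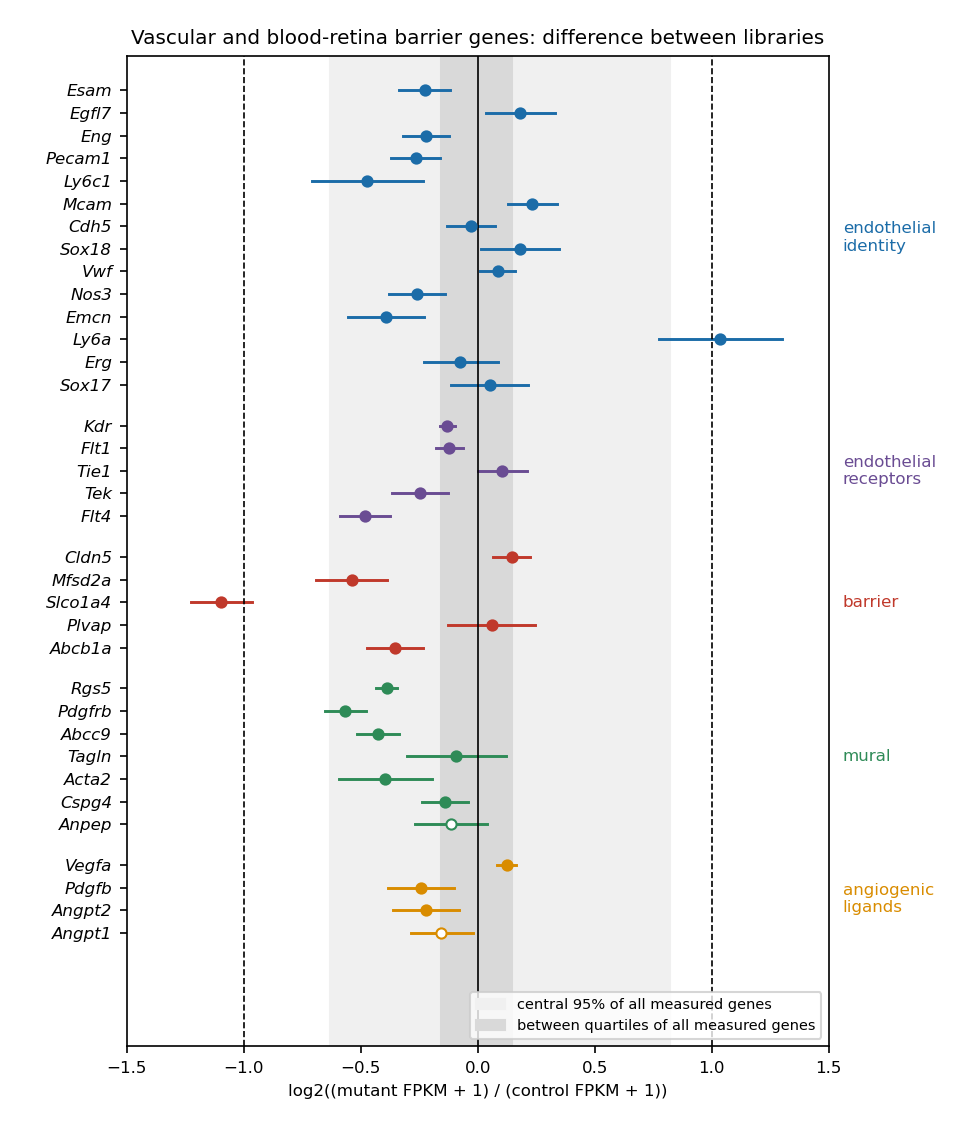
Log2 ratio of mutant to control after adding 1 FPKM for each of the 35 genes (points; open where under 1 FPKM in both libraries), with lines for 95% intervals of counting error, dashed lines at the size rule and grey bands for the quartiles and the central 95% of all measured genes. Only Ly6a and Slco1a4 lie past the dashed lines, and 6 of 6 measured mural genes lie below 0.

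Among the angiogenic ligands, Vegfa was abundant and nearly level. Vegfa (chromosome 17, 46016993 to 46032369, minus strand) had 68.2 FPKM in control retina and 74.4 in mutant retina, 109% of the control (106 to 112). Pdgfb, which endothelium secretes to recruit pericytes through Pdgfrb, had 3.75 and 3.02 FPKM, 80.5% (70.9 to 91.4). Angpt2, the Tek antagonist made by remodelling endothelium, had 2.39 and 1.91 FPKM, 79.9% (69.0 to 92.3). Angpt1, the Tek agonist made by mural cells, had 0.621 and 0.454 FPKM. Both members of the ligand and receptor pairs Pdgfb with Pdgfrb and Angpt2 with Tek were lower in the mutant library, while Vegfa stood at 109% and its receptor Kdr at 91.2% of the control.

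Transcript use within genes was compared where a gene had several transcripts in the table, which holds for 9 of the 35. Vegfa is spliced into a heparin-binding long form and a freely diffusing short form. Its main transcript NM_009505, of a 368-residue protein in GENCODE, held 55.5% of the summed FPKM in control retina and 54.4% in mutant retina. The shorter NM_001025257, of 324 residues, held 17.9% and 22.5%, and NM_001110266 had 0.710 FPKM in control retina and was listed at 0 in the mutant. The second deposited table, which lists more Vegfa transcripts, divides the gene otherwise: there NM_009505 held 18.6% and 9.78% and NM_001025257 held 5.86% and 3.83%. The largest share in that table was that of NM_001287057, with 37.0% and 44.6%. The Vegfa split thus differs between the tables, in its main transcript and in the direction of the 324-residue form. NM_001287057, NM_001287056 and NM_001287058 had the status LOWDATA there in place of OK, so this difference rests in part on flagged estimates. Pecam1 divided about equally in both libraries, with NM_001032378 at 57.2% and 59.8%. The largest shifts were in Egfl7, where NM_001164564 went from 29.1% to 17.1% and NM_178444 from 2.02% to 11.4%, and in Pdgfrb, where NM_001146268 held 18.2% and 8.10%. In Eng the transcript NM_001146348 held 24.03% and 14.7%. Both expressed Ly6a transcripts were higher in the mutant library, NM_010738 with 1.402 and 3.56 FPKM and NM_001271419 with 0.929 and 2.26, so their shares hardly differed. Emcn and Abcc9 each came almost entirely from 1 transcript in both libraries. The split of a gene among overlapping transcripts is itself an estimate, and no interval was put on these shares.

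**Figure D3:**
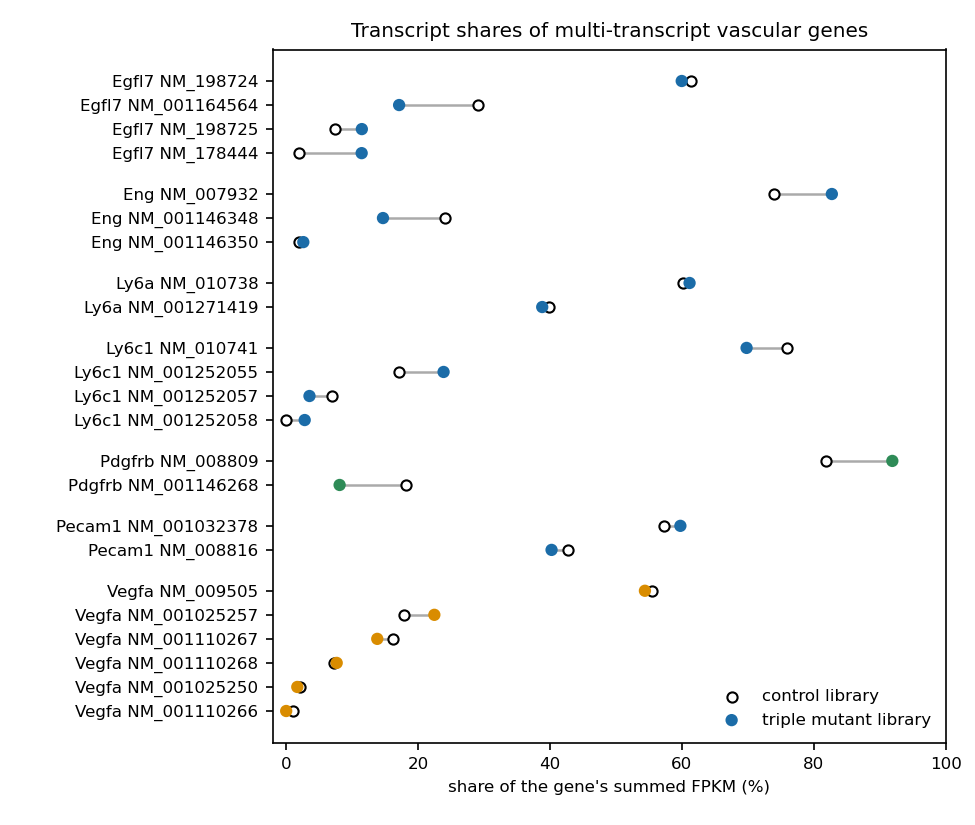
Share of each transcript in the summed FPKM of its gene (percent) in the control library (open circles) and the mutant library (filled circles), for 7 vascular genes with several expressed transcripts, leaving out transcripts under 1% in both. Egfl7, Eng and Pdgfrb show the widest gaps, and the main transcript is the same in both libraries for each gene in this table. The second table divides Vegfa over more transcripts.

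The second deposited table, a separate estimate from the same libraries, lists 10 further transcripts of these genes. In the second table Tek was divided among NM_013690 (1.59 FPKM in control retina and 0.654 in mutant retina), NM_001290549 (0.972 and 1.07) and NM_001290551 (under 0.001 and 0.392). The first table hides this split in 1 row. Vegfa, listed under 9 transcripts, summed to 66.3 and 75.5 FPKM. Cdh5 alone changed side of 0 between the tables, from -0.03 to 0.02, while the median of all measured genes went from 0.00 to 0.05.

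The signalling pathways that shape retinal vessels were read from lists of other genes. In VEGF and Notch signalling, 20 of 22 were measured, 0 passed the size rule and the median was -0.06. Dll4, the Notch ligand of endothelial tip cells, had 2.03 and 1.23 FPKM, 60.4% of the control (51.1 to 71.2), and Eltd1 (Adgrl4), an endothelial adhesion receptor, had 5.55 and 4.15. Notch1 had 7.55 and 12.7 FPKM and Hey2, a Notch target, 5.34 and 8.66, though neural cells and glia express both. In Norrin and Wnt signalling, 12 of 16 were measured, 0 passed and the median was 0.06. The ligand Ndp (5.28 and 5.46 FPKM) and the co-receptors Lrp5 (5.15 and 5.96) and Tspan12 (6.63 and 6.93) were near level, while the Norrin receptor Fzd4 had 3.68 and 2.49 FPKM, 67.8% of the control (62.1 to 74.0). Lef1, a transcription factor of the pathway, had 1.42 and 3.28 FPKM, 231% (198 to 271).

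In TGF-beta and BMP signalling, 14 of 14 were measured, 0 passed and the median was 0.26. Tgfb2 had 28.7 and 57.9 FPKM, just under the rule with a log2 ratio of 0.99, and the BMP target Id3 had 43.8 and 68.2. The endothelial BMP receptor gene Acvrl1, which works with Eng, had 3.59 and 2.85 FPKM. Among hypoxia genes 14 of 15 were measured, 0 passed and the median was 0.15, with the vasodilator gene Adm at 1.199 and 2.88 FPKM and the oxygen sensor gene Egln3 at 1.81 and 3.35.

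Structural genes around the vessel made up 3 lists. Of 14 other junction genes, 13 were measured and 1 passed upwards, against 1.84% of all measured genes. It was Marveld2, the tricellulin gene, with 0.484 and 2.41 FPKM, which epithelial cells also express. The median of the 13 was 0.11, with Ocln (1.90 and 1.85 FPKM) and Tjp1 (29.7 and 30.9) level. Of 5 genes of caveolae, 5 were measured, 0 passed and the median was -0.16, with Sdpr (Cavin2) lowest at 2.14 and 1.30 FPKM. Of 11 basement membrane genes, 11 were measured, 0 passed and the median was -0.13, with Col4a1 at 27.4 and 30.3 FPKM and Lamb1 at 9.78 and 7.11. Of 21 other endothelial genes, 17 were measured, 0 passed and the median was -0.18, near that of the 35. The lowest of these was Pltp, a phospholipid transfer protein gene of barrier endothelium and other cells, with 20.98 and 10.8 FPKM, and Cd34, a surface sialomucin, had 9.43 and 7.35.

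**Figure D4:**
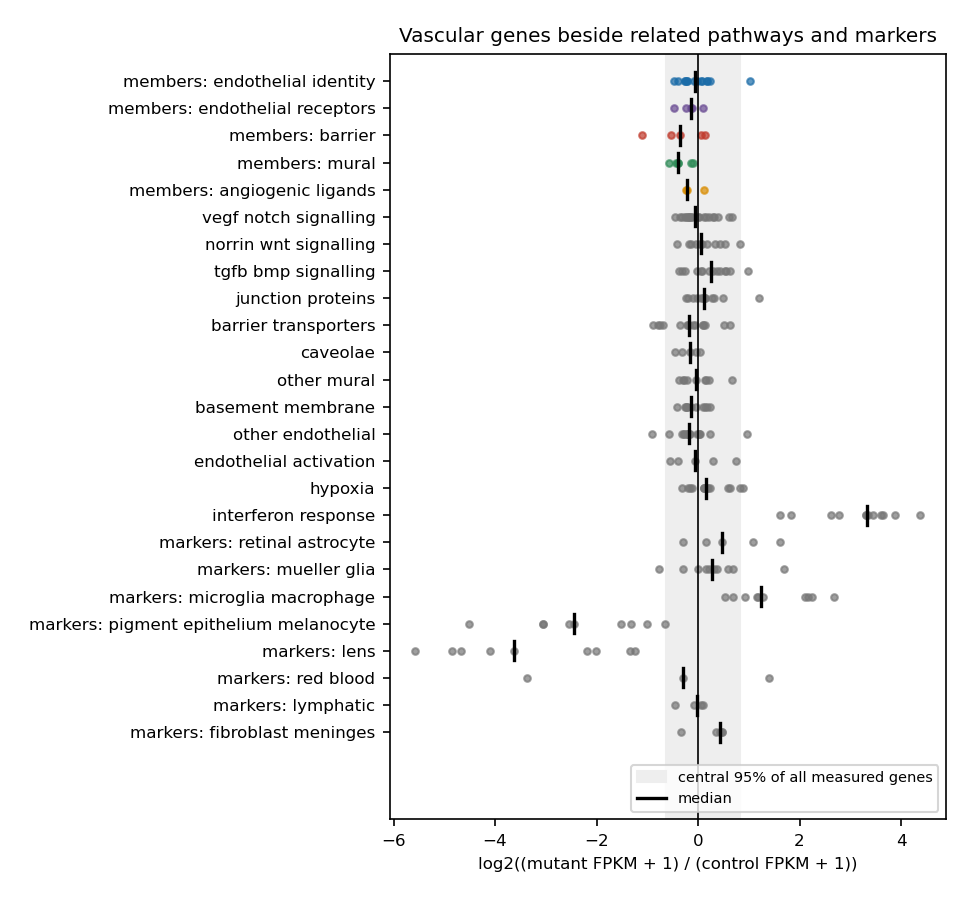
Log2 ratio of mutant to control after adding 1 FPKM for each measured gene (points) of the 5 role classes and of 20 further lists, with the median of each list (black bar) and the central 95% of all measured genes (grey band). The vascular classes and pathway lists lie mostly inside the band, unlike the interferon, microglia, pigment epithelium and lens lists.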

How the data were processed

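Total RNA of dissected retinas was sequenced, per the labels' protocols, and the 2 samples were grouped by genotype label. The submitters' processing notes name TopHat2 2.0.8, Cuffdiff 2.1.1 and the build mm10. The sources used here do not state annotation, read layout or strand setting. In both deposited tables each RefSeq transcript has an FPKM value per library, with the authors' log2 fold change, test statistic (a score), p-value and q-value, per the file headers. The main table has 30608 rows with symbols and the second 33362 rows without, matched through the first table and RefSeq.

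Gene FPKM was the sum over transcripts, for symbols with at least 1 transcript of status OK and none failed (15318 of 23356). No p-value was computed, as there is 1 library per group. Fragments were read from the steps of low values: in genes with 1 transcript and 3000 bases or more, low values were whole within 10% of a step in 155 of 202 cases for the control (76.7%) and 142 of 196 for the mutant (72.4%). Intervals are exact binomial on these fragments, with lengths from GENCODE M21 and a fragment length of 150 bases. The rule and intervals were tried on simulated data that held counting error only, with the same fragment scale and a fixed length. This cannot show how they fare with differences between libraries or with errors in the fragment scale. Positions are from GENCODE M21 on GRCm38, the assembly of mm10, and all 35 overlapped the deposited loci.

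Genes named were the 35, the 3 targeted genes and up to the 3 highest and 3 lowest of each list; Slc2a1, Slc22a8, Ndp, Lrp5, Tspan12, Acvrl1, Ocln, Tjp1, Sele, Selp, Lim2, Lum, Ccl21a, the Slco1a and Ly6 relatives and the opposite-strand genes were added after their values were seen. The 35 genes, the classes and the lists were chosen with earlier results of these data known. Alternatives were other pseudocounts (0.1 and 5 FPKM), other filters (none and 5 FPKM), the second table, centring on the median and the highest transcript. The promoter windows were searched on both strands for the interferon motifs GAS (TTCNNNGAA) and ISRE, the ETS motif AGGAAG and the TCF/LEF motif CTTTGAT. Python 3.11.15, pandas 2.3.3, numpy 2.4.6 and scipy 1.17.1 were used.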

Additional observations from a re-analysis of the deposited data

How the results depend on the processing

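The upward count of 1 (Ly6a) was 0 with a pseudocount of 5 FPKM and 0 with the highest transcript in place of the sum. The downward count of 1 (Slco1a4) was 0 with a pseudocount of 5 FPKM, 0 with a filter of 5 FPKM, which leaves it out, and 3 with a size rule of 0.5, chosen after seeing the data (against 4.74% of all measured genes), where the upward count was 1 (against 5.37%). The median of the 33 genes, -0.22, lay between -0.25 (pseudocount 0.1 FPKM) and -0.11 (pseudocount 5 FPKM). The barrier median of -0.35 became -0.50 with a pseudocount of 0.1 FPKM, -0.15 with 5 FPKM and -0.20 with the filter of 5 FPKM. The mural median of -0.39 became -0.19 with a pseudocount of 5 FPKM and -0.48 with the filter. The receptor median of -0.13 became -0.070 in the second table, whose median over all measured genes is 0.05. The ligand median of -0.22 became 0.12 with the filter, where Vegfa alone remains. The endothelial identity median lay between -0.08 and -0.01 under all 7 settings named in the methods. Of the 33 measured genes, only Cdh5 changed side of 0 under any of those 7, from -0.03 to 0.02 in the second table. No paired analysis was possible because each genotype has 1 library, and none could be left out.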

Other observations

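The GAS, ISRE, ETS and TCF/LEF motifs were counted in the 250 bases before the start of 19 vascular genes. The ETS motif was in 6 of 19 windows (Slco1a4, Egfl7, Emcn, Eng, Flt1 and Tie1; 31.6%, against 29.5% of all 32851 windows), the TCF/LEF motif in 1 (Egfl7; against 3.21%), the interferon-response motif ISRE in 1 (Vegfa; against 2.98%) and the GAS motif in 0 (against 7.02%). Matches of different motifs overlapped in 0 cases.

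Of 9 endothelial activation genes, 5 were measured and 0 passed the size rule, with a median log2 ratio of -0.05. Vcam1, a leukocyte adhesion molecule, had 9.17 FPKM in control retina and 5.95 in mutant retina, 64.9% of the control (60.0 to 70.2), while Tnfrsf1a, a receptor of tumour necrosis factor, had 5.19 and 9.36, 180% (162 to 201), the highest ratio of the 5. Darc (Ackr1), a chemokine-binding receptor gene, was the most abundant of the list with 74.3 and 71.7 FPKM, 96.4% (92.1 to 100.9). That is above Kdr (57.5 and 52.4 FPKM) per length. Which cells the Darc RNA came from was not tested, and overlap of its exons with other genes was not looked up. Icam1 had 0.945 and 1.38 FPKM, 146% (114 to 186), and the selectin genes Sele and Selp stood under 0.1 in both libraries. Retinal astrocytes, which lay the template for the vessels, had 5 of 6 markers measured and 2 past the rule upwards, against 1.84% of all measured genes. These were Gfap (7.72 and 25.6 FPKM) and Aldh1l1 (5.67 and 13.1), and Mueller glia share the former. Of the 5, 4 lay above 0 and 1 below, Aqp4 (23.1 and 18.6 FPKM), and the interval of S100b held no difference. Of 5 lymphatic markers 4 were measured and 0 passed, with Ccl21a at 0 in both libraries.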
